A study of Argopecten irradians irradians x Argopecten purpuratus with 6 samples.

Results

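The deposited expression table of the scallop adductor muscles holds 29249 gene models. Most are named after the genome contig they lie on and are called contig models here, while 2472 carry no contig name and are numbered from Novel00001 to Novel02472. The 300 well expressed members of the numbered group are described here. They had at least 0.1 FPKM in every library, were not among the 100 genes of highest mean FPKM, and had the highest means of the 1646 numbered models that met both conditions. FPKM, a read level corrected for gene length and for library depth, can be compared between genes of different length. The members were thus chosen by their mean FPKM over all 6 libraries, and their levels are given as a description. Colour was not used to choose them.

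The study compared orange adductor muscles, from the QN Orange strain according to the paper, with white ones from Bohai Red scallops, to find genes related to muscle colour. Both strains descend from crosses of Argopecten purpuratus, the Peruvian scallop, with the bay scallop subspecies Argopecten irradians irradians. The animals were 1 year old, and Bohai Red is the only strain named in the labels of the 6 samples. Each colour had 3 libraries, and the RNA of 3 muscles was pooled for each, so a value describes a pool and not an animal. Strain and muscle colour go together in these samples and cannot be told apart, and in a bulk muscle sample fewer cells of a type and less RNA per cell cannot be told apart either.

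The adductor is the muscle with which a scallop closes its shell, and in scallops that swim it is built largely of fast striated fibres beside a smaller smooth part that holds the valves shut. The orange colour of some scallop muscles comes from carotenoids, pigments that animals take up with their food. A gene set made for a new genome rarely holds every transcribed locus. Reads that fall outside it can be joined into further gene models, which may be protein-coding genes missed by prediction, untranslated ends of neighbouring genes, noncoding RNAs or expressed repeats. The sources used here do not state how the numbered models were made, which strand they lie on or where they lie, and apart from an open reading frame listed for 1 member they do not say what the models encode. No names, functions or sequences are therefore given for them, and the muscle label could not be checked against marker genes.

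The libraries held between 27564653 and 36093567 reads on genes, recovered from the spacing of the FPKM values. At this depth no library fell under 100 reads in 260 of the 300 numbered models, and 12 had fewer than 50 reads in at least 1 library. The lowest count was 6 reads, for Novel00998 in white replicate 2. Reads of overlapping or near-identical genes may have been assigned or left uncounted in ways that cannot be checked.

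The mean levels of the 300 numbered models ran from 7.10 to 873 FPKM, with a median of 13.7 FPKM. Only 26 had a mean of 100 FPKM or more, and 197 had a mean under 20 FPKM. Even the lowest member lay above 83.2% of all gene models. The members made up 6.25% of the 4797 genes in the same range of mean FPKM, which also held Novel00060, described below. All numbered models made up 8.45% of the whole table.

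**Figure D1:**
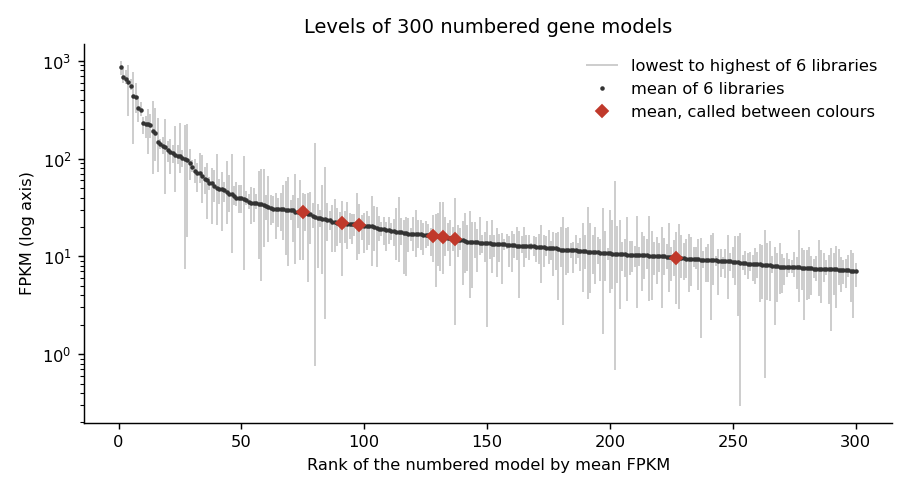
Mean FPKM (points, log axis) of the 300 numbered gene models by rank, with grey lines from the lowest to the highest of the 6 libraries and red diamonds for the 7 models that differed between orange and white muscle in limma's test. Levels fall steeply over the leading ranks and flatten to 7.10 FPKM, and a few models span a far wider range than their neighbours.

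The highest member was Novel00008, with 992, 888 and 927 FPKM in orange replicates 1, 2 and 3 against 787, 712 and 930 FPKM in white replicates 1, 2 and 3. The ranges of the colours overlapped, at 936 ± 52.9 FPKM in orange and 810 ± 111 FPKM in white muscle (SD, n = 3 libraries each). Novel00783 had 722, 689 and 656 FPKM in orange and 653, 825 and 600 FPKM in white muscle. Novel01792 had 660, 715 and 597 FPKM in orange and 591, 574 and 813 FPKM in white muscle. In these 2 models the orange values lay inside the range of the white ones. Novel01469, with 513, 600 and 524 FPKM in orange and 646, 527 and 499 FPKM in white muscle, was as even. Novel01157 and Novel00654 also overlapped between the colours, with means over the 6 libraries of 312 and 229 FPKM. These 6 models were among the 10 highest, and their log2 fold changes between the colours, orange minus white, lay between -0.03 and 0.22.

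The other 4 of the 10 highest were less even. Novel01409 had 369, 483 and 272 FPKM in orange and 755, 906 and 903 FPKM in white muscle. No orange library reached the lowest white one, and the difference was -1.22 on the log2 scale (standard error, SE, 0.226, limma adjusted p = 0.0510), just short of the threshold of 0.05. Novel02016 had 406, 433 and 385 FPKM in orange and 238, 244 and 259 FPKM in white muscle, a difference of 0.72 on the log2 scale (SE 0.146, limma adjusted p = 0.0612). Novel01209 had 443, 556 and 590 FPKM in orange and 290, 344 and 334 FPKM in white muscle. Both had every orange value above every white value, by less than a doubling of the mean. Novel01874 varied within each colour, with 515, 228 and 141 FPKM in orange and 513, 432 and 767 FPKM in white muscle, and its colours overlapped.

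To ask which models differed between the colours, limma was fitted to log2(FPKM + 0.5). The fit took in the 15341 genes whose mean reached 0.5 FPKM, a filter that all 300 numbered models passed. A gene counted as called where its adjusted p was below 0.05 and its log2 fold change lay beyond 1 in either direction. Of the 300, 7 were called, 2 higher and 5 lower in orange muscle. This is 2.33% of them, against 1.43% of all genes tested. For the higher direction the shares were 0.667% of the members and 0.652% of all genes, and for the lower direction 1.67% and 0.776%. The number of calls changed when 1 library was left out, which also left fewer libraries to the fit. It was 1 without orange replicate 1, 2 or 3 or white replicate 1, it was 2 without white replicate 3, and it was 8 without white replicate 2. Over all genes tested the share called moved too, to 0.410%, 0.136% and 0.456% without orange replicates 1, 2 and 3 and to 0.362%, 1.71% and 0.538% without white replicates 1, 2 and 3. Of the 7 models, 4 were called again without white replicate 2 and 1, Novel02417, without orange replicate 3. None of the 7 was called again when orange replicate 1 or 2 or white replicate 1 or 3 was left out.

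Without the threshold of calling, and with the 7 called models counted in, more of the 300 numbered models lay lower in orange muscle than the share over all genes tested. The colours did not overlap in 114 of them, or 38%, against 24.1% of all genes. Every orange value lay below every white value in 89 of them, or 29.7%, against 15.7% of all genes tested. Every orange value lay above every white value in 25, or 8.33%, against 8.32% of all genes. At an unadjusted p under 0.05, 82 were lower in orange muscle, 27.3% against 11.4% of all genes, and 26 were higher, 8.67% against 6.56%. The log2 fold change was below 0 in 213 members, 71% against 60.8%, and the median was -0.28, against -0.12 over all genes tested. No test of these shares was run, since genes are not replicates and were sampled in the same 6 libraries.

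Over all genes tested the median was below 0 too. Scaling the libraries by median ratios brought the median of all genes to -0.00 and that of the numbered models to -0.15. It left 73 members with all orange values below and 29 with all above the white values, against 12.8% and 12.9% of all genes. After this scaling 6 members were called, 1 higher and 5 lower in orange muscle, against 1.64% of all genes, and 4 of the 6 were among the 7. Without orange replicate 2, where only 2 orange libraries had to lie below the white ones, 139 members did so, against 25.8% of all genes. Of the 4496 contig models within the same range of mean FPKM, 12.0% had all orange values below all white values, with a median log2 fold change of -0.07. Among the 1485 other numbered models that were tested, 1478 of which had lower means than any member, the share was 27.1% and the median -0.29. The median was -0.24 in members ranked 1 to 100, -0.32 in those ranked 101 to 200 and -0.34 in those ranked 201 to 300.

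**Figure D2:**
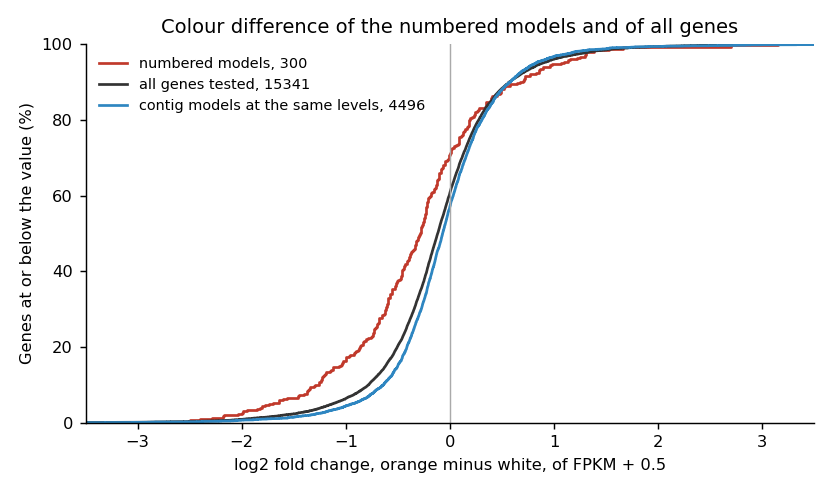
Cumulative share of genes (vertical axis, percent) by log2 fold change of FPKM + 0.5, orange minus white (horizontal axis), for the 300 numbered models (red), all 15341 genes tested (black) and the 4496 contig models at the same levels (blue). The red curve lies left of the others below 0, with 71% of the numbered models under 0 against 60.8% of all genes, and crosses them above 0.

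The 2 models that rose in orange muscle had white means under 7.10 FPKM, the mean of the lowest member. Novel02417 had 39.5, 32.4 and 12.1 FPKM in orange replicates 1, 2 and 3, against 1.98, 2.19 and 3.09 FPKM in white replicates 1, 2 and 3. The lowest orange library was still above the highest white one, with 1014 reads in orange and 83 reads in white libraries in all. The difference of 3.15 on the log2 scale (SE 0.431, limma adjusted p = 0.0238) was the largest rise and had the lowest adjusted p among the 300. The choice by the mean of all 6 libraries let in models with lower levels in 1 colour. The orange mean of 52 members and the white mean of 15 lay under the 7.10 FPKM of the lowest member, among them Novel02417, Novel02109 and Novel00998 in white muscle and Novel00726 in orange muscle. Novel02417 was called in 10 of 16 alternative fits, with limma adjusted p between 0.0169 and 0.104. Novel02109 had 16.6, 21.2 and 36.2 FPKM in orange and 7.16, 7.33 and 6.66 FPKM in white muscle. The white libraries were nearly equal while the orange ones spread over a doubling. The difference was 1.66 on the log2 scale (SE 0.296, limma adjusted p = 0.0485), and it was called in 2 of 16 alternative fits.

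Among the 5 models that fell, Novel00237 had 10.1, 11.8 and 6.25 FPKM in orange and 31.3, 37.0 and 34.0 FPKM in white muscle. Its mean was 9.37 ± 2.83 FPKM in orange and 34.1 ± 2.88 FPKM in white muscle (SD, n = 3 libraries each), or -1.85 on the log2 scale (SE 0.262, limma adjusted p = 0.0251). Novel01900 had 12.2, 19.3 and 9.07 FPKM in orange and 43.9, 40.7 and 44.9 FPKM in white muscle, a difference of -1.70 on the log2 scale (SE 0.284, limma adjusted p = 0.0412). In both models the white pools agreed closely and the lowest value was that of orange replicate 3. Novel00726, with 5.07, 3.24 and 5.76 FPKM in orange and 17.6, 11.0 and 15.5 FPKM in white muscle, fell by 1.56 on the log2 scale (SE 0.278, limma adjusted p = 0.0485). Its lowest value was in orange replicate 2, so the falling models did not share 1 lowest library.

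Novel00843 had 12.3, 12.0 and 10.5 FPKM in orange and 30.2, 34.5 and 26.0 FPKM in white muscle. It fell by 1.34 on the log2 scale (SE 0.199, limma adjusted p = 0.0302). Novel01473 had 8.81, 10.4 and 9.20 FPKM in orange and 26.3, 24.2 and 18.8 FPKM in white muscle, and fell by 1.23 (SE 0.209, limma adjusted p = 0.0421). These were the tightest of the called models within orange muscle, with SDs of 0.977 and 0.838 FPKM over 3 libraries. Of the 16 alternative fits, Novel00237 and Novel00843 were called in 9 each, Novel01900 in 6, and Novel00726 and Novel01473 in 4 each. The log2 fold changes of the 7 called models kept their direction in all 16 fits, most of which could not have reversed it. Other filters and limma settings left the fold change as it was, or nearly so. Leaving out a library cannot reverse a model whose colours do not overlap.

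**Figure D3:**
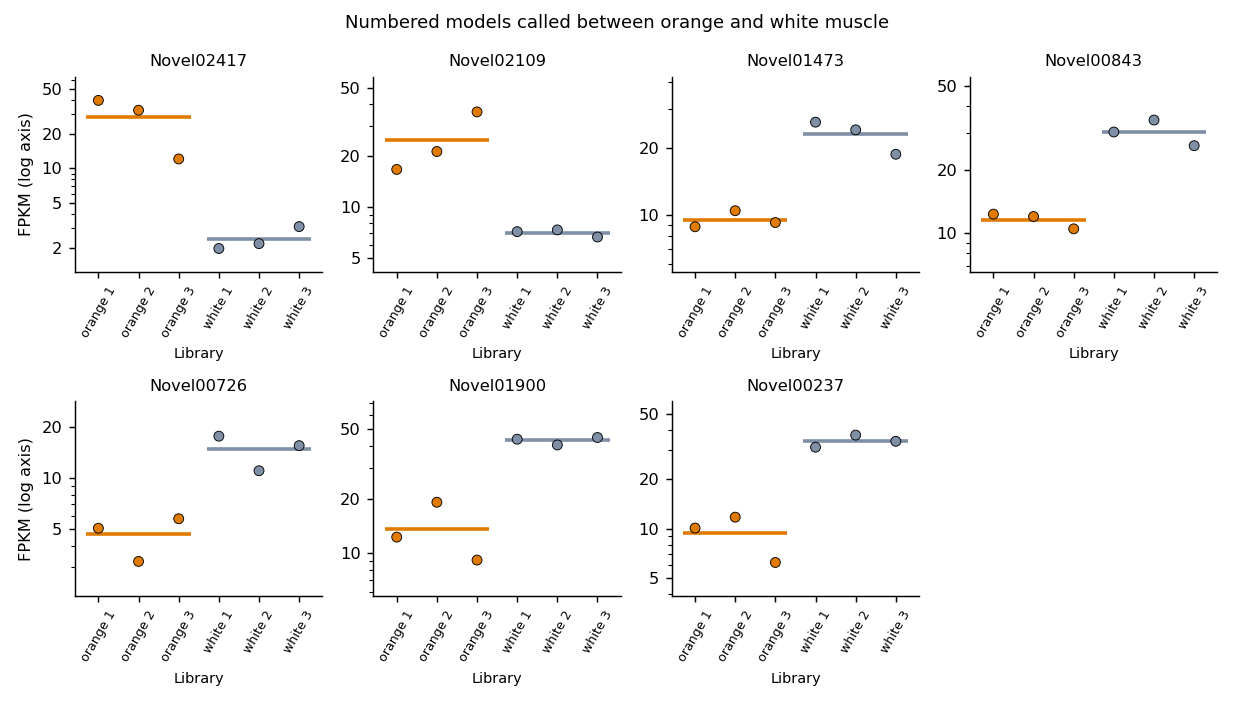
FPKM (log axis) of the 7 called numbered models in orange replicates 1 to 3 (orange points) and white replicates 1 to 3 (grey points), with a line at the mean of each colour. Novel02417 and Novel02109 are higher in all 3 orange libraries and the other 5 lower in all 3, with no overlap between the colours in any panel.

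Several models with large differences were not called, and their pools differed widely within a colour. These were chosen after their values were seen. Novel00912 had the largest negative log2 fold change of the 300, -2.69 (SE 0.756, limma adjusted p = 0.137), from 6.61, 5.46 and 2.27 FPKM in orange and 39.8, 8.98 and 81.2 FPKM in white muscle. Novel01723 had 5.56, 9.38 and 13.4 FPKM in orange and 70.2, 26.3 and 79.1 FPKM in white muscle, a difference of -2.50 on the log2 scale (SE 0.477, limma adjusted p = 0.0537). In both, white replicate 2 was the lowest white pool. Novel00157, a model of higher level, had 24.3, 69.4 and 15.8 FPKM in orange and 227, 107 and 135 FPKM in white muscle. On the orange side, Novel00616 had 218, 76.6 and 209 FPKM in orange and 52.1, 45.3 and 45.7 FPKM in white muscle, or 1.66 higher on the log2 scale (SE 0.396, limma adjusted p = 0.0948).

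The share of a library's reads that the numbered models took gives 1 value per pool. The 300 members took 2.60%, 2.73% and 2.36% of the reads on genes in orange replicates 1, 2 and 3, against 3.04%, 2.82% and 2.87% in white replicates 1, 2 and 3. The mean was 2.56% ± 0.190 in orange and 2.91% ± 0.114 in white muscle (SD, n = 3 libraries each), and the ranges did not overlap (two-sided exact permutation test, p = 0.1, below which 3 libraries against 3 cannot go). Without Novel01453, the member with the most reads, the ranges overlapped, at 2.27%, 2.18% and 1.90% in orange and 2.54%, 2.26% and 2.53% in white muscle (two-sided exact permutation test, p = 0.2). The difference of the means, orange minus white, was then -0.327 percentage points, against -0.347 for all 300. That model had 163, 272 and 227 FPKM in orange and 244, 276 and 171 FPKM in white muscle, and its recovered length of 20288 bases gave it between 0.331% and 0.560% of the reads of a library. Without the 10 members with the most reads, the ranges were again apart, at 1.35%, 1.46% and 1.22% in orange and 1.73%, 1.54% and 1.66% in white muscle.

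All 2472 numbered models took 5.82%, 7.55% and 5.97% of the reads in orange and 8.60%, 8.61% and 8.20% in white muscle (two-sided exact permutation test, p = 0.1). The 6 numbered models among the 100 highest genes, which are not members, took 2.52% to 4.02% in orange and 4.41% to 4.94% in white libraries. Without these 6, the shares were 3.30%, 3.53% and 3.01% in orange and 4.02%, 3.66% and 3.79% in white muscle, and the difference of the means, orange minus white, was -0.544 percentage points in place of -2.02. It was -0.585 points as a share of summed FPKM and -0.719 points with the 100 highest genes left out of both the models and the total.

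**Figure D4:**
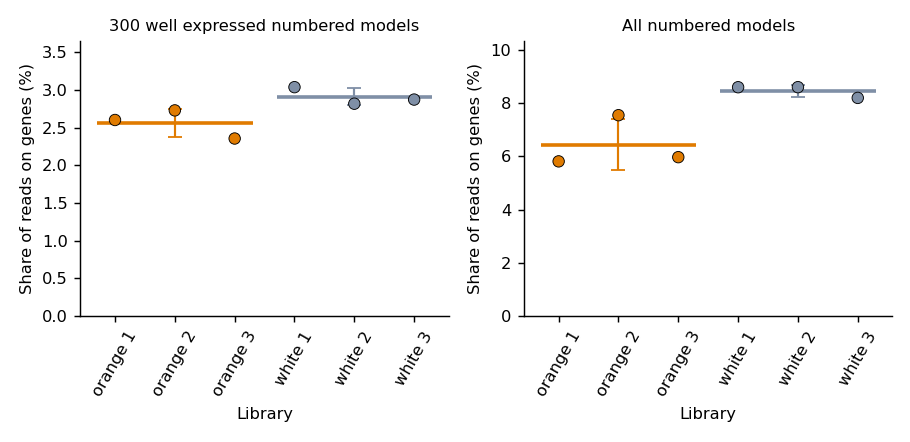
Share of the reads on genes (percent) taken by the 300 members (left) and by all 2472 numbered models (right) in each library, with the mean and SD of each colour over 3 libraries. In both panels the 3 orange points lie below the 3 white points, at 2.36% to 2.73% against 2.82% to 3.04% on the left.

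The lowest of the 6 values fell in orange replicate 3 for 128 of the 300 numbered models, and in orange replicate 2 for 14. These are 42.7% and 4.67% of the members, against 30.2% and 8.75% of all genes tested. The highest value fell in white replicates 1, 2 and 3 for 78, 63 and 74 members. These are 26%, 21% and 24.7% of the members, against 28.2%, 10.1% and 23.9% of all genes tested. Across the members, Pearson's r of the log2 levels ran from 0.902 to 0.924 for pairs of orange libraries, from 0.813 to 0.906 for white pairs and from 0.746 to 0.833 for mixed pairs. Over all genes tested the same values were 0.937 to 0.958, 0.924 to 0.940 and 0.886 to 0.921. The members span a narrower range of levels than all genes tested, and r depends on that range, so the 2 sets of values cannot be compared. These correlations are across genes of the same libraries and are given as a description. The first principal component of the members held 50.4% of the variance, with every orange library below 0 and every white library above 0. On the second, with 22.6%, white replicate 2 stood alone at -10.3.

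The ratio of the highest to the lowest of the 6 values had a median of 2.38 over the members and of 2.26 over all genes tested that were above 0 throughout. It was under 1.5 in 31 members and over 10 in 15. The SD between libraries of a colour on the log2 scale had a median of 0.365 in the members and 0.333 over all genes tested. It was 0.307 in the contig models within the same range of mean FPKM and 0.389 in the other numbered models tested.

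The widest spread within a colour belonged to 2 models that were high in 1 pool. Novel01119 had 2.19, 1.33 and 0.762 FPKM in orange and 1.11, 145 and 1.33 FPKM in white muscle. Novel01716 had 0.986, 0.890 and 0.713 FPKM in orange and 0.694, 59.2 and 0.806 FPKM in white muscle. White replicate 2 alone was high in both, with 18604 and 3871 reads. Their 6 values correlated at r = 0.996, and they were the only members in which 1 library was at least 3 times the next. They owed their place among the 300 to this library, since outside it neither reached 3 FPKM. The remaining pools were low in both colours.

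Novel00452 was high in 2 of the 3 white pools, with 9.90, 17.0 and 7.27 FPKM in orange and 8.84, 107 and 81.7 FPKM in white muscle. Novel00497, the member closest to it (r = 0.991 over the 6 libraries), had 18.3, 24.2 and 11.9 FPKM in orange and 10.8, 112 and 83.6 FPKM in white muscle. White replicate 1 stood with the orange pools in both, and their recovered lengths were 400 and 497 bases. Novel00452 was called only without white replicate 1 (limma adjusted p = 0.0476).

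Novel01454 was high in pools of either colour, with 180, 9.06 and 7.43 FPKM in orange and 219, 39.6 and 144 FPKM in white muscle. The values of 6 other members correlated with it at r over 0.9, which is not a raised number, since 3.42% of all pairs of members did. One of these was Novel01386, with 261, 89.2 and 73.1 FPKM in orange and 194, 87.6 and 179 FPKM in white muscle. Novel02420, chosen after its values were seen, had 329, 105 and 93.8 FPKM in orange and 241, 96.2 and 235 FPKM in white muscle. Orange replicate 1 and white replicates 1 and 3 were the high pools in all 3 models, and the colours overlapped.

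Novel00998 was high in orange muscle and uneven in white muscle, with 10.9, 13.2 and 17.5 FPKM in orange and 0.844, 0.297 and 9.14 FPKM in white muscle. All orange values were above the white ones, from 221, 302 and 462 reads in orange against 18, 6 and 196 reads in white libraries. The difference was 2.69 on the log2 scale (SE 0.831, limma adjusted p = 0.163), and the limma adjusted p was 0.0143 without white replicate 3 and between 0.0701 and 0.380 in the other 15 fits.

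**Figure D5:**
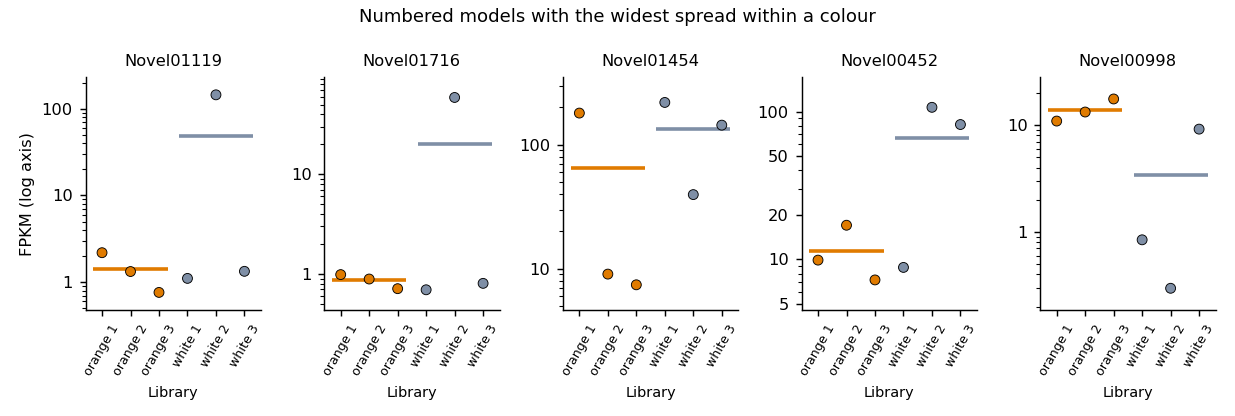
FPKM (log axis) of the 5 numbered models with the largest SD within a colour, in orange replicates 1 to 3 (orange points) and white replicates 1 to 3 (grey points), with a line at the mean of each colour. Novel01119 and Novel01716 stand out in white replicate 2 alone, and Novel00452 in white replicates 2 and 3. Novel01454 is highest in orange replicate 1 and white replicates 1 and 3, while Novel00998 is low in white replicates 1 and 2.

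At the other end, the members with the smallest spread within a colour were closely reproduced between pools. Novel01059 had 81.6, 81.6 and 82.2 FPKM in orange and 122, 118 and 121 FPKM in white muscle. The colours were far apart relative to the pools, but the difference was only -0.56 on the log2 scale (SE 0.159, limma adjusted p = 0.139), and limma's standard error draws on the spread of all genes at that level. Novel02159 had 9.57, 9.76 and 10.3 FPKM in orange and 12.7, 13.9 and 13.1 FPKM in white muscle, also without overlap. Novel02384 had 6.69, 7.54 and 6.90 FPKM in orange and 9.11, 7.81 and 8.56 FPKM in white muscle. Novel01047 had 12.5, 12.9 and 11.6 FPKM in orange and 12.5, 13.8 and 12.9 FPKM in white muscle, and its highest value was 1.18 times the lowest, the smallest ratio of the 300. Novel02016, described above, was the other of these 5.

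One member, Novel00787, is also listed in the paper's table of proteins selected for a difference between the colours, which places an open reading frame on it. The protein values were not used here. Its mRNA had 56.7, 58.9 and 48.2 FPKM in orange and 56.3, 52.8 and 65.5 FPKM in white muscle. The ranges overlapped, with a difference of -0.09 on the log2 scale (SE 0.190, limma adjusted p = 0.836).

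The recovered lengths of the 300 numbered models ran from 273 to 20288 bases, with a median of 1464.5 and quartiles of 800 and 2942 bases. They were under 1000 bases in 105 members and 5000 bases or more in 25. The contig models at the same levels had a median of 1939.5 bases. FPKM is divided by length and chose the members, so the 2 medians are not independent of the choice. A coding sequence alone has a length divisible by 3. The recovered length was divisible by 3 in 36.3% of the members, which is close to the share among arbitrary whole numbers, and in 51.3% of the contig models with at least 200 reads. Members shorter than the median had a median SD within a colour of 0.426 on the log2 scale, and the longer ones 0.326. Of the shorter members 28.7% had all orange values below all white values, and of the longer ones 30.7%. All orange values lay above all white values in 12% of the shorter and 4.67% of the longer members. The log2 fold change was below 0 in 64% of the shorter and 78% of the longer ones.

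Consecutive identifier numbers joined 45 pairs of members. Their 6 log2 values correlated with a median r of 0.275, against 0.220 over all 44850 pairs of members, and r was over 0.9 in 7 of the 45 pairs, against 3.42% of all pairs. The closest pair was Novel00922, with 15.4, 41.9 and 29.4 FPKM in orange and 8.04, 11.4 and 15.1 FPKM in white muscle, and Novel00923, with 5.02, 14.7 and 10.5 FPKM in orange and 3.91, 4.38 and 6.29 FPKM in white muscle (r = 0.979). In both models orange replicate 2 was the highest and white replicate 1 the lowest pool. The sources do not say that consecutive numbers lie next to each other in the genome.

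At the edge of the choice, the last members were Novel01925, with a mean of 7.15 FPKM, and Novel00878, with a mean of 7.10 FPKM. The next numbered models, Novel02401 and Novel02268, had means of 7.07 and 7.06 FPKM and were left out. The requirement of 0.1 FPKM in every library kept 1 model out whose mean was high enough. This was Novel00060, listed at 0 FPKM in all 3 orange libraries and at 32.2, 11.5 and 29.4 FPKM in white replicates 1, 2 and 3.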

How the data were processed

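Poly-A RNA of 6 pools of adductor muscle was sequenced as paired ends. The authors cleaned the reads, mapped them with HISAT2 2.0.4 to a bay scallop genome that was unpublished, quantified genes with HTSeq 0.9.1 and deposited FPKM values. Annotation and strandedness were not given in the sources used here. Libraries were grouped by the colour in the sample labels.

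Reads on genes, gene lengths (100 to 60000 bases) and library totals were recovered from the spacing of the FPKM values, and 100% of the values above 0 were whole reads within the rounding of the last digit. The smallest fitting length was taken, so a length and its reads are too low where all counts of a gene have a common divisor, and the recovered reads added up to between 99.6% and 99.7% of the totals. The recovery was tested on simulated data. The paper's supplement gives clean reads and not pairs. For every library the total exceeded the number of pairs that its clean reads make up, so the counts were not whole pairs.

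For the colour comparison, limma 3.58.1 (R 4.3.3) was fitted to log2(FPKM + 0.5) using its mean-variance trend. P-values were adjusted by Benjamini-Hochberg over the 15341 genes whose mean reached 0.5 FPKM. Fold changes on this scale understate those of low genes. The paper's test on counts was not run. Shares were compared with exact permutation tests in Python 3.11.15 with scipy 1.17.1. All p-values rest on pools and not on animals. Those of limma weigh the difference between colours against the spread between pools, drawn toward that of all genes at the same level.

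The members, and the lists and tests, were chosen with earlier results of these data known. The models named were the 10 highest, the called ones (at most 10 per direction), the 5 with the largest and the 5 with the smallest spread within a colour, those at the edges of the choice or kept out by its conditions, and any in the protein table. Others are marked as chosen after their values were seen. Alternatives were pseudocounts of 0.1 and 1, other filters and scalings, limma settings, a replicate block, limma voom on recovered reads, each library left out and other choices of members.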

Additional observations from a re-analysis of the deposited data

How the results depend on the processing

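The count of 7 called models stayed between 5 and 9 with pseudocounts of 0.1 or 1 FPKM, both scalings, limma without the trend or robust, no fold change threshold, and 200 members or a ranking by median. It was 1 without a filter on low values (0.271% of all genes tested were called), 3 when the filter was raised to 5 FPKM (0.467%), and 0 with limma voom on the recovered reads (0.111%), where 110 members had an unadjusted p under 0.05. Of all 1646 numbered models that met the conditions 1563 were tested and 32 called, 5 higher and 27 lower (all genes, 1.43%). With each library left out in turn it was 1 to 8 (all genes, 0.136% to 1.71%). The cause was not tested, except that more models were eligible in the choice of 1646.

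Members with all orange values below all white values numbered 73 to 82 under the 2 scalings (12.6% to 12.8% of all genes) and 95 to 139 with a library left out (17.9% to 30.2% of all genes), where fewer libraries had to meet the condition. These alternatives were chosen after seeing the data, as were those that left out the models with the most reads. The median log2 fold change stayed between -0.40 and -0.15, and the median SD within a colour between 0.337 and 0.388 over the alternatives tried. The difference in read share, orange minus white, stayed between -0.431 and -0.244 percentage points for the members. For all numbered models it ran from -2.58 to -0.544 points.

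Replicate numbers are shared by the colours, but libraries with numbers 1, 2 and 3 deviated from their colour means with r of 0.230, 0.151 and -0.189, so pairing was not assumed. A fit with a replicate block called 6 models, 3 of which were among the 7.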

Other observations

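The 6 numbered models among the 100 highest genes are not members, and entered above only in the read shares and among the other numbered models tested. Novel00439 was the highest of them, with 4332, 4344 and 4633 FPKM in orange and 4004, 3696 and 3786 FPKM in white muscle. Every orange value was above every white value. Novel01324 had 1354, 2442 and 1640 FPKM in orange and 2975, 3226 and 2853 FPKM in white muscle. Its recovered length was 13124 bases, and all white values were above the orange ones. Novel01102 had the opposite order, with 1548, 1896 and 1967 FPKM in orange and 827, 1136 and 1235 FPKM in white muscle. Neither was called, with limma adjusted p of 0.130 and 0.0988. In Novel01840, Novel02316 and Novel01884 the colours overlapped, with means over the 6 libraries of 2064, 1752 and 1572 FPKM.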
